A study of Arabidopsis thaliana with 21 samples.

Results

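NLP genes encode the NIN-LIKE PROTEINs of plants, transcription factors that carry an RWP-RK domain for binding DNA and a PB1 domain for pairing with other proteins. Of the 9 Arabidopsis NLP genes, 4 were listed in the deposited tables and were matched by symbol and locus: NLP3 (AT4G38340), NLP7 (AT4G24020), NLP8 (AT2G43500) and NLP9 (AT3G59580). These 4 stood among 2945 genes listed in any of 4 tables, 1128 of them in a root table and 2065 in a protoplast table. NLP8 and NLP9 were listed in both root tables and in neither protoplast table, and NLP3 and NLP7 were listed in both protoplast tables and in neither root table. NLP1, NLP2, NLP4, NLP5 and NLP6 were listed nowhere and were not analysed here. Each table held only genes that the authors had selected for a difference, so that the presence of a gene in a table was itself set by its response.

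The study measured mRNA by sequencing in 21 Arabidopsis thaliana libraries, 3 in each of 7 groups, to ask how the kinase KIN10 bears on nitrate signalling. The first root genotype was p35S:KIN10-HA, here KIN10ox, a transgenic that makes HA-tagged KIN10 from the 35S promoter, which is active in most plant cells, and the number of independent lines is not stated in the labels. The second was the wild type Ler (Landsberg erecta). Seedlings of both were grown for 7 days on MGRL medium with 5 mM nitrate, kept on nitrogen-free medium for 2 days and given 5 mM KNO3, or 5 mM KCl as the nitrate-free control, for 1 h. The 4 root groups were KIN10ox with KNO3, KIN10ox with KCl, Ler with KNO3 and Ler with KCl. The 3 protoplast groups were wild-type Col-0 leaf mesophyll protoplasts from plants aged 4 weeks and grown in 8 h light and 16 h dark, transfected with plasmids for NLP7-GFP and KIN10-Myc, for NLP7-GFP alone, or for GFP. The source field of these libraries names Ler and their genotype field Col-0, which is followed here. Plasmid promoters and amounts are not stated. Labels call the 3 libraries biological replicates without saying whether they came from separate plantings or protoplast preparations, so p values measure the spread between these libraries, which may be technical.

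Nitrate is both a nutrient and a signal for plants. NLP7 is held to be a main activator of the early transcriptional response. It is bound by nitrate, is phosphorylated by calcium-dependent protein kinases, is retained in the nucleus when nitrate is given, and then activates genes of nitrate uptake and reduction. NLP8 is known from seeds, where it promotes nitrate-dependent germination and activates CYP707A2, a gene for an enzyme that breaks down abscisic acid. NLP9 is the closest relative of NLP8. SnRK1, the kinase complex that senses energy shortage, has KIN10 as its catalytic part.

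The DNA that encodes the start of the RWP-RK domain shows how the members are related and how separable their reads were. The lines give 60 bases of the coding strand of each member from the RefSeq annotation of TAIR10.1, at coding positions 1588 to 1647 of NLP3, 1867 to 1926 of NLP7, 1903 to 1962 of NLP8 and 1699 to 1758 of NLP9. The capitals mark the 18 bases for the amino acids after which the domain is named.

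NLP3: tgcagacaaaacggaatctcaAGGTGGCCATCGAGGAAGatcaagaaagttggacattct
NLP7: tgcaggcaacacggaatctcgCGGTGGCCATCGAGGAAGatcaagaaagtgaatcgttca
NLP8: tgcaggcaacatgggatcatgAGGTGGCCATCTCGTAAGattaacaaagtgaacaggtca
NLP9: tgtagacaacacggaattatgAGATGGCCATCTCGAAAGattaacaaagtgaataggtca

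In these windows NLP8 and NLP9 had the same base at 52 of 60 positions and NLP3 and NLP7 at 50 of 60, whereas the other pairs had the same base at 40 to 47. Over whole coding sequences NLP8 and NLP9 were 80.3% identical, with a longest shared run of 30 bases, and every other pair was 60.7 to 62.5% identical. No run of 50 bases in the transcripts of any member occurred in the transcripts of another annotated gene, and no member overlapped another gene. The counts of the members therefore had no near-identical copy to share reads with. All 4 genes lie on the plus strand, with the same start and end in the deposited tables and in TAIR10.1: NLP3 at chr4:17954710-17958063, NLP7 at chr4:12479528-12484049, NLP8 at chr2:18061716-18066708 and NLP9 at chr3:22009008-22012804. Their longest transcripts have 4 exons for NLP3, 5 for NLP7 and 6 each for NLP8 and NLP9.

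Mapped fragments numbered 19703152 to 20236565 in root libraries and 16188751 to 20438949 in protoplast libraries. Levels are given as FPKM, fragments per kilobase of transcript, scaled to the mapped fragments of each library. None of 8 root markers was listed in a root table, so the tissue label of the roots was not checked. The summed FPKM of the 10 listed of 11 leaf markers was 255.5, 105.1 and 476.5 in KIN10ox with KCl and 43.8 to 56.7 in KIN10ox with KNO3. In Ler this sum was 91.6 to 99.7 with KNO3 and 208.8, 91.8 and 104.4 with KCl, so that library 1 of Ler with KCl was above its group as well. The summed FPKM of the 5 listed of 6 seed markers was 36.0, 3.74 and 103.3 in KIN10ox with KCl and 1.86 to 7.96 in the other root libraries. Libraries 1 and 3 of KIN10ox with KCl thus stood highest in both sums. The authors' deposited fold changes in KIN10ox, and ranks by them, use these libraries throughout. Fitted differences of NLP8 and NLP9 that use these libraries are given with and without them. Without them, library 2 is the one left in its group and is assumed to vary like the other groups. Of 3 guard cell markers KAT1, which encodes a potassium channel, was listed, at 0.09 to 0.15 FPKM in KIN10ox with KNO3, 0.42 to 0.64 FPKM in KIN10ox with KCl, 0.13 to 0.20 FPKM in Ler with KNO3 and 0.90 to 1.06 FPKM in Ler with KCl. KAT1 was thus low with KNO3 in both genotypes, in the direction of NLP8 and NLP9. Between genotypes with KCl its log2 difference was -0.93 (adjusted p = 0.0350 by edgeR) with all libraries and -1.03 (adjusted p = 0.195 by edgeR) without libraries 1 and 3 of KIN10ox with KCl, and over all alternatives its adjusted p ran from 0.0119 to 0.195. The part of leaf, seed and guard cell transcripts in the results on NLP8 and NLP9 was not tested. In bulk samples, fewer cells of a type and less RNA per cell cannot be told apart. In protoplasts 2 of 11 leaf markers, RBCS2B and CAB1, were listed, with a summed FPKM of 653.6 to 1106 with NLP7 and KIN10, 1119 to 1264 with NLP7 and 415.1 to 468.0 with GFP. Between NLP7 with KIN10 and NLP7 these 2 genes went in opposite directions. RBCS2B averaged 397.1 FPKM with NLP7 and KIN10, 243.8 FPKM with NLP7 and 50.4 FPKM with GFP. CAB1 averaged 417 FPKM with NLP7 and KIN10, 928 FPKM with NLP7 and 392.1 FPKM with GFP. The 3 listed of 8 root markers, SCR, PHO1 and GL2, summed to 4.72 to 6.90 FPKM with NLP7 and KIN10, 21.6 to 29.6 FPKM with NLP7 and 2.68 to 2.97 FPKM with GFP. GL2 was listed at 0 in every library with NLP7 and KIN10 and with GFP. The part of these marker differences in the results on NLP3 and NLP7 was not tested.

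The first comparison asks how NLP genes of roots respond to nitrate in each genotype. NLP8 and NLP9, the related pair, both had lower transcript levels within 1 h of nitrate, about 3-fold for NLP8 and about 10-fold for NLP9, in KIN10ox and in Ler alike in direction. NLP8 was the more abundant of both genes per length in every root library. These falls were used to list the genes and are given as a description. Their size depended on the scaling. By edgeR on the recovered library sizes the log2 change of NLP8 was -1.86 in KIN10ox and -1.69 in Ler, and that of NLP9 was -3.29 in KIN10ox and -3.48 in Ler. Under TMM, a scaling that centres the listed genes by construction, NLP8 changed by -2.35 in KIN10ox and -2.49 in Ler, and NLP9 by -3.76 in KIN10ox and -4.29 in Ler. The median log2 change over all genes tested was 0.67 in KIN10ox and 0.95 in Ler on the recovered library sizes, and 0.18 in KIN10ox and 0.15 in Ler under TMM. Without libraries 1 and 3 of KIN10ox with KCl, the change in KIN10ox was -1.93 for NLP8 and -3.29 for NLP9.

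NLP8 stood at 7.09, 4.25 and 5.97 FPKM in KIN10ox with KNO3, against 23.92, 21.86 and 17.14 FPKM in KIN10ox with KCl. In Ler it stood at 5.82, 5.92 and 6.07 FPKM with KNO3, against 17.34, 21.01 and 19.2 FPKM with KCl. Every KNO3 library lay below every KCl library, and the KNO3 libraries of Ler lay closest together. These contrasts served to list NLP8 and NLP9, and the share of all listed genes so separated was not counted. The KNO3 level was 3.64 ± 0.626-fold lower in KIN10ox and 3.23 ± 0.183-fold lower in Ler (ratio of mean FPKM ± SE, n = 3 per group). The authors' deposited table gave a log2 fold change for NLP8 of -1.67 in KIN10ox (adjusted p = 9.99e-22) and -1.58 in Ler (adjusted p = 1.73e-54). Of the genes listed, 77% in the KIN10ox table and 88.3% in the Ler table had an authors' adjusted p under 0.05. Genes listed as lower made up 49% of the KIN10ox table and 30.3% of the Ler table, and edgeR called 39.5 and 26.6% of the 972 root genes tested lower. By the authors' deposited fold changes, NLP8 was number 219 and NLP9 number 101 of 422 genes listed as lower in KIN10ox. In Ler, NLP8 was number 75 and NLP9 number 12 of 233.

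NLP9 stood at 0.78, 0.56 and 0.52 FPKM in KIN10ox with KNO3, against 7.13, 6.16 and 5.17 FPKM in KIN10ox with KCl. In Ler it stood at 0.68, 0.36 and 0.36 FPKM with KNO3, against 5.31, 5.39 and 4.94 FPKM with KCl. Every KNO3 library was under 1 FPKM and every KCl library at least 4.94 FPKM. The counts behind the KNO3 values were small, at 43, 30 and 29 fragments in KIN10ox and 36, 20 and 19 in Ler. The KNO3 level was 9.92 ± 1.58-fold lower in KIN10ox and 11.2 ± 2.57-fold lower in Ler. The authors' deposited table gave a log2 fold change for NLP9 of -3.09 in KIN10ox (adjusted p = 3.17e-38) and -3.39 in Ler (adjusted p = 1.42e-46). Among genes listed as lower that averaged at least 1 FPKM, NLP9 was number 19 and NLP8 number 75 of 242 in KIN10ox by the authors' deposited fold change. In Ler, NLP9 was number 4 and NLP8 number 42 of 182.

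**Figure D1:**
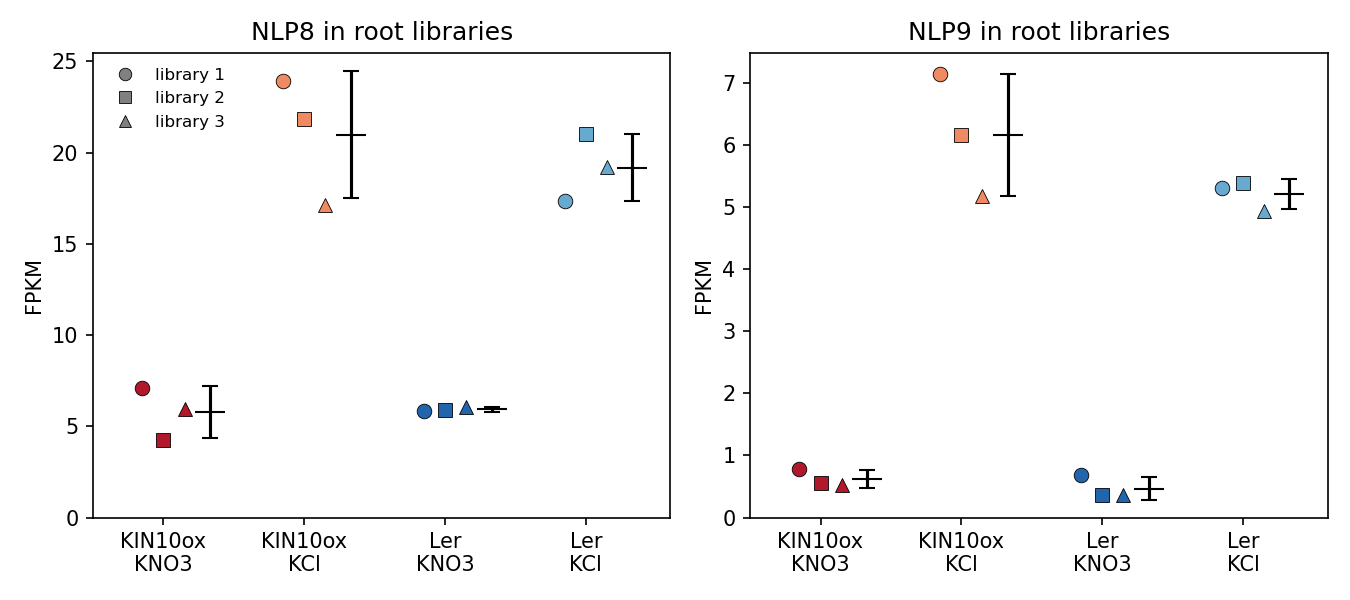
FPKM (y axis, linear from 0) of NLP8 (left) and NLP9 (right) in each of 12 root libraries, with groups on the x axis, symbols for libraries 1 to 3, and the mean with its SD beside the points (n = 3). Both genes lie lower with KNO3 than with KCl in both genotypes, NLP9 under 1 FPKM in all 6 KNO3 libraries.

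Because NLP9 had the larger fold change, the balance of both relatives differed with nitrate. The ratio of NLP8 to NLP9 FPKM within a library was 9.39 ± 1.96 in KIN10ox with KNO3, against 3.41 ± 0.125 in KIN10ox with KCl (mean ± SD, n = 3). It was 13.95 ± 4.68 in Ler with KNO3, against 3.68 ± 0.362 in Ler with KCl. The single ratios were 9.09, 7.59 and 11.5 in KIN10ox with KNO3 and 8.56, 16.4 and 16.9 in Ler with KNO3, and the ratios of both genotypes overlapped. With KCl they were 3.36, 3.55 and 3.32 in KIN10ox and 3.27, 3.90 and 3.89 in Ler, again overlapping. The ratio in library 2 of KIN10ox with KCl, taken alone, is the 3.55.

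The second comparison asks whether KIN10 overexpression shifted NLP8 or NLP9, a contrast that was not used to list the genes, although the same libraries were. No difference between KIN10ox and Ler passed the test for either gene at either treatment, and the libraries of both genotypes overlapped throughout. In KIN10ox with KCl, NLP8 averaged 20.97 ± 3.48 FPKM and NLP9 6.15 ± 0.980 FPKM, against 19.2 ± 1.84 and 5.21 ± 0.240 FPKM in Ler with KCl (SD, n = 3). In KIN10ox with KNO3, NLP8 averaged 5.77 ± 1.43 FPKM and NLP9 0.620 ± 0.140 FPKM, against 5.94 ± 0.126 and 0.467 ± 0.185 FPKM in Ler with KNO3. The order of the group means for NLP8 was KIN10ox with KCl, Ler with KCl, Ler with KNO3 and KIN10ox with KNO3, and for NLP9 KIN10ox with KCl, Ler with KCl, KIN10ox with KNO3 and Ler with KNO3. In both orders the neighbours of 1 treatment did not differ beyond their spread, whereas the treatments did.

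With KCl, the log2 difference of KIN10ox over Ler was 0.13 ± 0.17 for NLP8 (SE, 95% interval -0.24 to 0.50, adjusted p = 0.673) by edgeR's quasi-likelihood test with Benjamini-Hochberg adjustment over 972 genes. For NLP9 it was 0.24 ± 0.21 (95% interval -0.21 to 0.70, adjusted p = 0.510). With KNO3 it was -0.05 ± 0.18 for NLP8 (95% interval -0.43 to 0.34, adjusted p = 0.878 by edgeR). For NLP9 with KNO3 it was 0.44 ± 0.26 (95% interval -0.14 to 1.01, adjusted p = 0.285 by edgeR). The intervals allow a level of NLP9 in KIN10ox from 0.910 to 2.02 times that of Ler with KNO3. The same test called 13.8% of the genes with KCl and 11.6% with KNO3, while 31.2 and 32.8% of 1128 genes had libraries that did not overlap.

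The nitrate response itself also did not differ detectably between genotypes for either gene. The response in KIN10ox minus that in Ler was -0.17 ± 0.25 on the log2 scale for NLP8 (95% interval -0.71 to 0.36, adjusted p = 0.696 by edgeR). For NLP9 it was 0.20 ± 0.34 (95% interval -0.53 to 0.93, adjusted p = 0.744 by edgeR). edgeR called 0 of 972 genes in this comparison (0%), while 187 had an unadjusted p under 0.05 and DESeq2 called 41 with the same library sizes. In KIN10ox with KCl both genes were highest in library 1 and lowest in library 3. Without libraries 1 and 3 of that group, the difference with KCl was 0.20 for NLP8 (adjusted p = 0.738 by edgeR) and 0.25 for NLP9 (adjusted p = 0.741 by edgeR), and adjusted p values over all alternatives ran from 0.437 to 0.956 for NLP8 and from 0.391 to 0.818 for NLP9. The response difference without these libraries was -0.24 for NLP8 (adjusted p = 0.716 by edgeR) and 0.19 for NLP9 (adjusted p = 0.846 by edgeR).

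**Figure D2:**
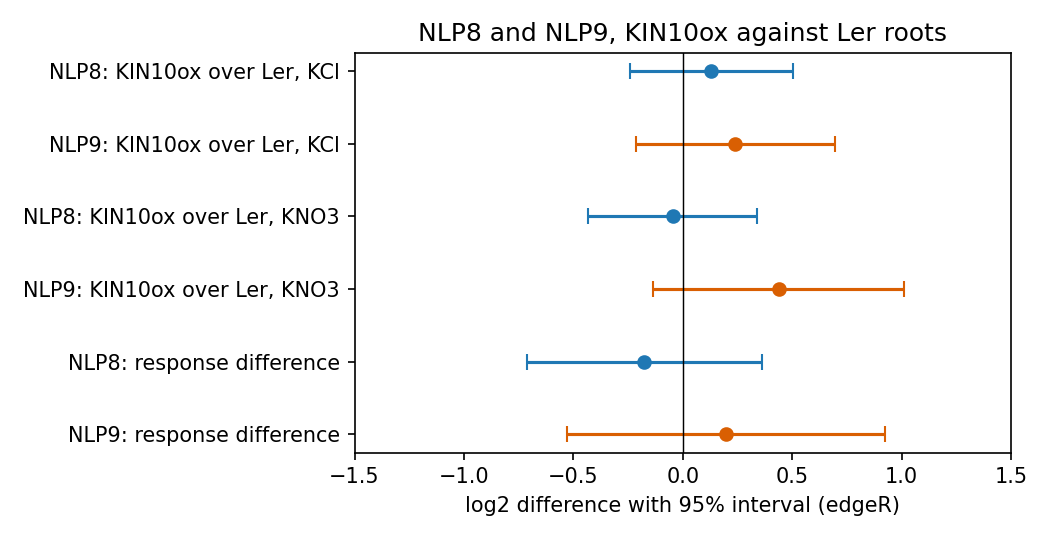
Log2 differences of KIN10ox over Ler with KCl and with KNO3, and the nitrate response of KIN10ox minus that of Ler, for NLP8 (blue) and NLP9 (orange), as points with 95% intervals from edgeR (x axis, log2). All 6 intervals include 0, and the widest, from -0.53 to 0.93, is that of the response difference of NLP9.

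Promoters of NLP8 and NLP9 are shown because both genes fell together, and that of NLP3 because it rose with NLP7 in protoplasts, as described further on. Each line is the 250 bases before the annotated start, from RefSeq's TAIR10.1 genome, on the plus strand. Capitals mark GAATC on either strand, the letters bound by the HRS1/HHO repressors of the NIGT1 family, which nitrate and NLP7 induce.

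NLP8 chr2:18061466-18061715: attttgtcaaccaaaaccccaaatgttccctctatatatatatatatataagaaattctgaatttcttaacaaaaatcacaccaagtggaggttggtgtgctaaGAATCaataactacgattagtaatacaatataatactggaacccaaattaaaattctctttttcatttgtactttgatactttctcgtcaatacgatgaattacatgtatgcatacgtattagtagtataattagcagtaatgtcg
NLP9 chr3:22008758-22009007: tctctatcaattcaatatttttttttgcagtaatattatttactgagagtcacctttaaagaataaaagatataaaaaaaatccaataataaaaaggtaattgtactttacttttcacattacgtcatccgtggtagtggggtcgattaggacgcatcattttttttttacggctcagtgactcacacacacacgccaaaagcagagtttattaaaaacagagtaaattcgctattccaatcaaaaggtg
NLP3 chr4:17954460-17954709: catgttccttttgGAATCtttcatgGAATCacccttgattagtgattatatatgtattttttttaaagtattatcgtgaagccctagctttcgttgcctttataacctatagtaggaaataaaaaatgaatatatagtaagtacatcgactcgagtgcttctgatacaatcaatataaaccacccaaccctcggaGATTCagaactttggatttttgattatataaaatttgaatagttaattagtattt

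GAATC was found once in the NLP8 window, at no place in that of NLP9 and 3 times in that of NLP3. The NLP7 window held it 2 times. It occurred in 38.9% of the same windows of 27443 protein-coding genes, so these matches are a description. The palindrome GAATATTC (0.86% of windows) and the G-box CACGTG (6.49%) were in none of the 4 windows. In the longer window of 1000 bases, GAATC occurred 9 times in NLP3, 5 in NLP7, 2 in NLP8 and 1 in NLP9, against 87.8% of all such windows with at least 1 match, and a G-box (14.8% of windows) occurred 1 time in NLP9.

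The third comparison concerns NLP7 in protoplasts, where counts join the chromosomal gene and the transfected NLP7-GFP copy. NLP7 transcript was high with the NLP7 plasmid, and it was about 6-fold lower when KIN10-Myc was transfected as well. KIN10 transcript was high only in the libraries labelled with KIN10. NLP7 stood at 280.17, 211.66 and 417.38 FPKM with NLP7 and KIN10, at 2261.07, 1535.82 and 1949.72 FPKM with NLP7, and at 52.69, 53.68 and 43.23 FPKM with GFP. The 3 groups did not overlap, with KIN10-containing libraries between the other groups. Between NLP7 with KIN10 and NLP7, 87.7% of 2065 genes did not overlap, and that share was not counted against GFP. This transcript took 0.0679 to 0.134% of the mapped fragments with NLP7 and KIN10, 0.493 to 0.727% with NLP7 and 0.0138 to 0.0172% with GFP.

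The mean NLP7 level was 6.08 ± 1.28-fold that with GFP when KIN10 was present, and 38.4 ± 4.93-fold that with GFP when NLP7 was transfected alone (ratio ± SE, n = 3). These values served to list the gene. The authors' deposited tables gave log2 fold changes of 2.62 (adjusted p = 7.24e-17) with NLP7 and KIN10 and 5.22 (p listed as 0) with NLP7, both against GFP. Of the genes in these tables, 68.1% with NLP7 and KIN10 and 88.8% with NLP7 had an authors' adjusted p under 0.05, and edgeR called 31.6 and 91.3% of the 1722 protoplast genes tested higher. Under TMM the log2 difference of NLP7 from GFP was 2.23 with NLP7 and KIN10 and 3.43 with NLP7, against 2.61 with NLP7 and KIN10 and 5.27 with NLP7 on the recovered library sizes. Both comparisons share the GFP libraries.

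NLP7 with KIN10 against NLP7 alone was not a contrast of the tables, although its libraries were used in them. NLP7 was listed through its level with NLP7, among others, which favours a lower level in any other group. Its difference is thus given as a description, with no test. NLP7 averaged 303 ± 105 FPKM with NLP7 and KIN10, against 1916 ± 364 FPKM with NLP7 (SD, n = 3), a 6.32 ± 1.44-fold lower level. The fitted log2 difference was -2.66 ± 0.21 (SE, edgeR). Over 1722 genes edgeR called 86.4% lower and 3.83% higher, with a median log2 difference of -1.47 over all genes tested, and 87.7% of 2065 genes did not overlap. When libraries were scaled on the listed genes by TMM, that median was 0.01, 554 genes were called lower and 494 higher, and the difference for NLP7 was -1.20. Over all alternatives the log2 difference of NLP7 ran from -2.96 to -1.20.

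KIN10 (AT3G01090), the co-transfected kinase, stood at 406.61, 287.01 and 546.49 FPKM with NLP7 and KIN10, at 26.24, 27.43 and 30.09 FPKM with NLP7 and at 32.43, 33.07 and 31.55 FPKM with GFP. Its level with NLP7 and KIN10 was 14.8 ± 2.75-fold that with NLP7 and 12.8 ± 2.32-fold that with GFP, which matches the labels. Within the NLP7 and KIN10 group, library 3 had the highest and library 2 the lowest level of both NLP7 and KIN10. In roots KIN10 was not analysed here, so the overexpression in KIN10ox was not checked. Because the NLP7 transcript itself differed between the transfections, the presence of KIN10 and the lower NLP7 level cannot be told apart as the difference behind any other gene in these libraries.

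**Figure D3:**
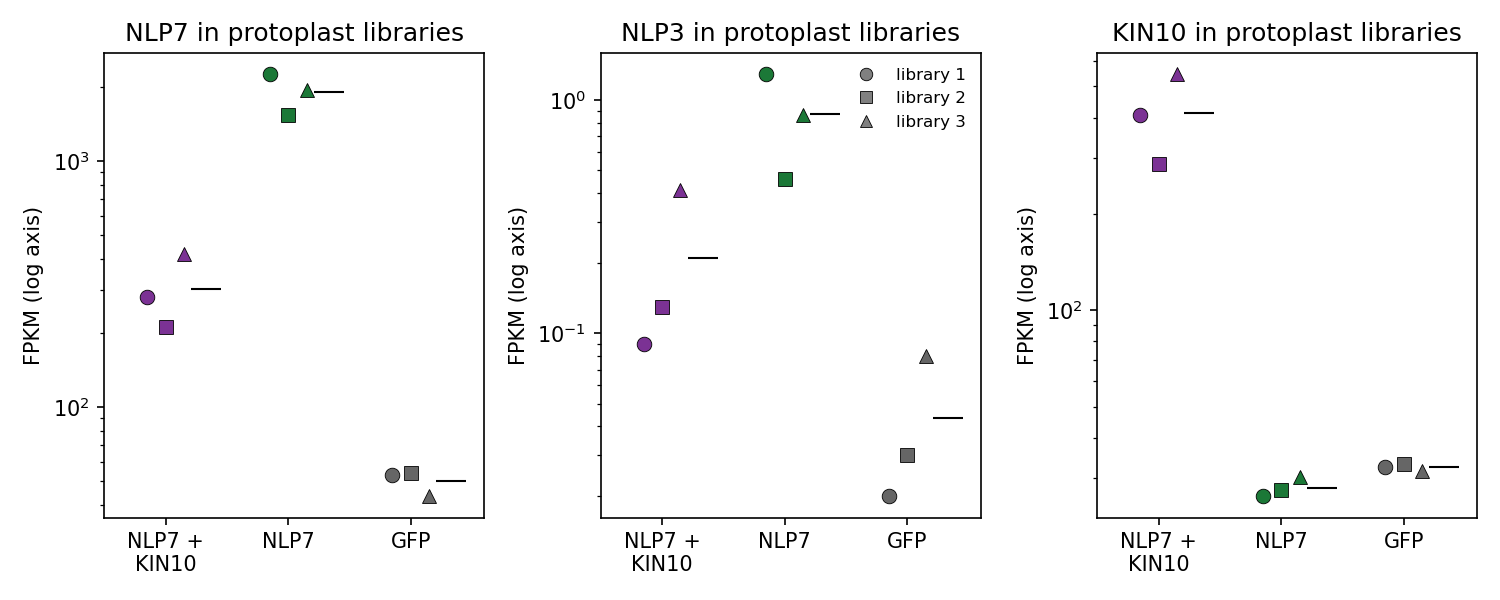
FPKM on a log axis (y) of NLP7, NLP3 and KIN10 in each of 9 protoplast libraries, by transfection (x), with symbols for libraries 1 to 3 and a line at the group mean (n = 3). With NLP7 and KIN10, NLP7 lies between 211.66 and 417.38 FPKM and NLP3 between 0.09 and 0.41 FPKM, below all libraries with NLP7 and above all with GFP, while KIN10 is high only with NLP7 and KIN10.

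NLP3, which was not on any plasmid, had the same order of groups as NLP7 at a far lower level. It stood at 0.09, 0.13 and 0.41 FPKM with NLP7 and KIN10, at 1.29, 0.46 and 0.86 FPKM with NLP7, and at 0.02, 0.03 and 0.08 FPKM with GFP. These levels rest on 4, 6 and 15 fragments with NLP7 and KIN10, 55, 18 and 37 with NLP7 and 1, 1 and 3 with GFP. The groups did not overlap, though library 3 with NLP7 and KIN10 and library 2 with NLP7 were near each other. Between these 2 transfections 87.7% of 2065 genes did not overlap, and that share was not counted against GFP. NLP3 was listed, and passed the filter on low counts, through its counts with NLP7, so its differences from that group are given as a description, with no test.

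Summed over libraries, the NLP3 ratio to GFP was 4.54 with NLP7 and KIN10 (exact 95% counting interval 1.71 to 15.2) and 20.5 with NLP7 (8.52 to 64.4), and these intervals cover counting error only. The authors' deposited tables gave a log2 fold change of 2.27 with NLP7 and KIN10 (adjusted p = 0.214) and of 4.29 with NLP7 (adjusted p = 4.52e-07). Between both transfections, NLP3 averaged 0.210 ± 0.174 FPKM with NLP7 and KIN10, against 0.870 ± 0.415 FPKM with NLP7 (SD, n = 3). The fitted log2 difference was -2.13 on the recovered library sizes and -0.65 under TMM on the listed genes, where the median over all genes tested was -1.47 and 0.01 under these scalings.

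**Figure D4:**
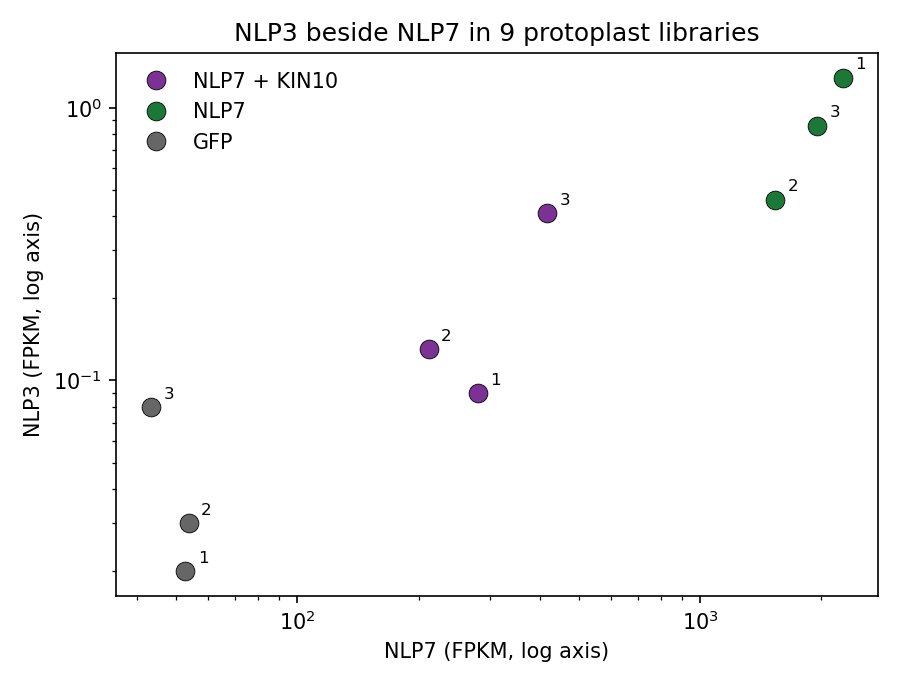
NLP3 (y) beside NLP7 (x), both in FPKM on log axes, in 9 protoplast libraries, colored by transfection and numbered by library. Libraries group by transfection, from GFP at the lower left to NLP7 at the upper right, and the GFP libraries rest on 1, 1 and 3 NLP3 fragments.

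Within the NLP7 group, library 1 was highest and library 2 lowest for both genes. Within the NLP7 and KIN10 group, library 3 was highest for both, and the order of libraries 1 and 2 was not the same. With 3 libraries a group these orders are given as a description.

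Other genes of the pathway were taken from a list of 24 nitrate-response genes known as targets of NLP proteins. Since the list was made of such genes, a rise with KNO3 or NLP7 was favoured in advance and is given as a description. In roots, 22 of them were listed by the authors as higher with KNO3 in KIN10ox (all but ANR1 and CIPK8) and 23 in Ler (all but ANR1), and none was listed as lower, in tables where 51 and 69.7% of the genes were listed as higher. They include genes of nitrate transport (NRT2.1, NPF6.3), genes of reduction (NIA1, NIR1) and genes that encode repressors (HRS1, HHO1, LBD37 to LBD39). The median of the authors' deposited log2 fold changes was 2.93 in KIN10ox and 2.97 in Ler, against 1.02 and 1.25 over all genes of those tables. NLP8 and NLP9 thus moved opposite to these targets in the same libraries. NIR1, which encodes nitrite reductase, averaged 1427 ± 110.4 FPKM in KIN10ox with KNO3 and 118.4 ± 11.8 FPKM in KIN10ox with KCl, against 1424 ± 20.5 FPKM in Ler with KNO3 and 106.5 ± 7.41 FPKM in Ler with KCl (SD, n = 3). Library 2 of KIN10ox with KCl, taken alone, had 112.3 FPKM of NIR1.

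Between genotypes, 6 of 23 listed targets passed edgeR's test with KCl, 3 higher in KIN10ox (NIA1, NIA2 and HRS1) and 3 lower (LBD38, LBD39 and BT1), against 7.72 and 6.07% of all genes. With KNO3, 1 of 23 was higher (NIA1) and 4 were lower (RFNR1, RFNR2, LBD38 and LBD39), against 2.67 and 8.95%. These counts changed with single libraries. With KCl, LBD39 was the 1 lower call left without library 1 or library 2 of KIN10ox or without library 3 of Ler, and without libraries 1 and 3 of KIN10ox together 2 were left (LBD38 and LBD39), with 3 higher in each of these settings. With KNO3, NIA1 lost its call under the replicate block, with no filter, with limma on log2(FPKM + 0.1) and without any 1 of 9 of the 12 root libraries. The lower calls with KNO3 were 2 without library 3 of Ler with KNO3 (RFNR1 and LBD39) and 3 without libraries 1 and 3 of KIN10ox with KCl. TMM on the listed genes gave 2 higher and 3 lower with KCl and 3 higher and 1 lower with KNO3, where over all genes it called 52 higher and 77 lower with KCl and 71 higher and 43 lower with KNO3. LBD39, a LOB-domain repressor of nitrogen responses, was the gene with the largest change, at 1.26 ± 0.318 FPKM in KIN10ox, against 3.95 ± 0.884 FPKM in Ler with KCl (log2 difference -1.65 ± 0.22, adjusted p = 6.07e-04 by edgeR). Without libraries 1 and 3 of KIN10ox with KCl, the log2 difference of LBD39 with KCl was -1.93 (adjusted p = 0.0145 by edgeR). With KNO3 LBD39 stood at 21.03 ± 3.38 FPKM in KIN10ox, against 43.8 ± 2.86 FPKM in Ler (log2 difference -1.06 ± 0.18, adjusted p = 3.06e-03 by edgeR). It was called lower under every alternative run at both treatments.

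In protoplasts, 5 of the 24 targets were listed as higher with NLP7 and KIN10 (G6PD3, RFNR2, LBD38, HRS1 and HHO1) and 12 with NLP7, each against GFP, in tables where 86.4 and 93% of the genes were listed as higher. The median of the authors' deposited log2 fold changes was 2.41 with NLP7 and KIN10 and 3.39 with NLP7, against 2.27 and 2.07 over all genes of those tables. HHO1, a repressor of the NIGT1 family, averaged 31.7 ± 14.6 FPKM with NLP7 and KIN10, 173.1 ± 12.7 FPKM with NLP7 and 0.243 ± 0.0473 FPKM with GFP (SD, n = 3). NRT2.1, the main high-affinity nitrate transporter gene, was listed at 0 in the GFP libraries and had 2 fragments with NLP7 and KIN10 and 47 with NLP7. LBD37, with the smallest change of the 12, averaged 116.2 ± 7.37 FPKM with NLP7 and KIN10, 204.5 ± 16.5 FPKM with NLP7 and 98.0 ± 11.6 FPKM with GFP.

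These 12 targets were listed through their level with NLP7, which favours a lower level in any other group. Their counts below are thus a description. All 12 were lower with NLP7 and KIN10 than with NLP7 alone by edgeR, with a median log2 difference of -1.58, where 86.4% of all genes were called lower with a median of -1.47. Under TMM on the listed genes, 6 of the 12 were lower (HHO1, HRS1, LBD38, NRT2.1, G6PD3 and RFNR2) and 4 were higher (NIA1, RFNR1, CIPK8 and LBD37). Against GFP, 9 of the 12 were higher with NLP7 and KIN10 by edgeR, where 31.6% of all genes were, and this count was 8 under TMM. The 12 had been listed as higher than the same GFP libraries, 5 of them in this contrast, so the selection favours these counts. G6PD3, a dehydrogenase that supplies reducing power in plastids, was 8.38-fold lower with NLP7 and KIN10 than with NLP7, and NIA1, a nitrate reductase gene, 2.24-fold lower, beside 6.32-fold for the NLP7 transcript. Over the 12 targets this fold ran from 22.7 for NRT2.1, on 2 and 47 fragments, to 1.76 for LBD37.

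**Figure D5:**
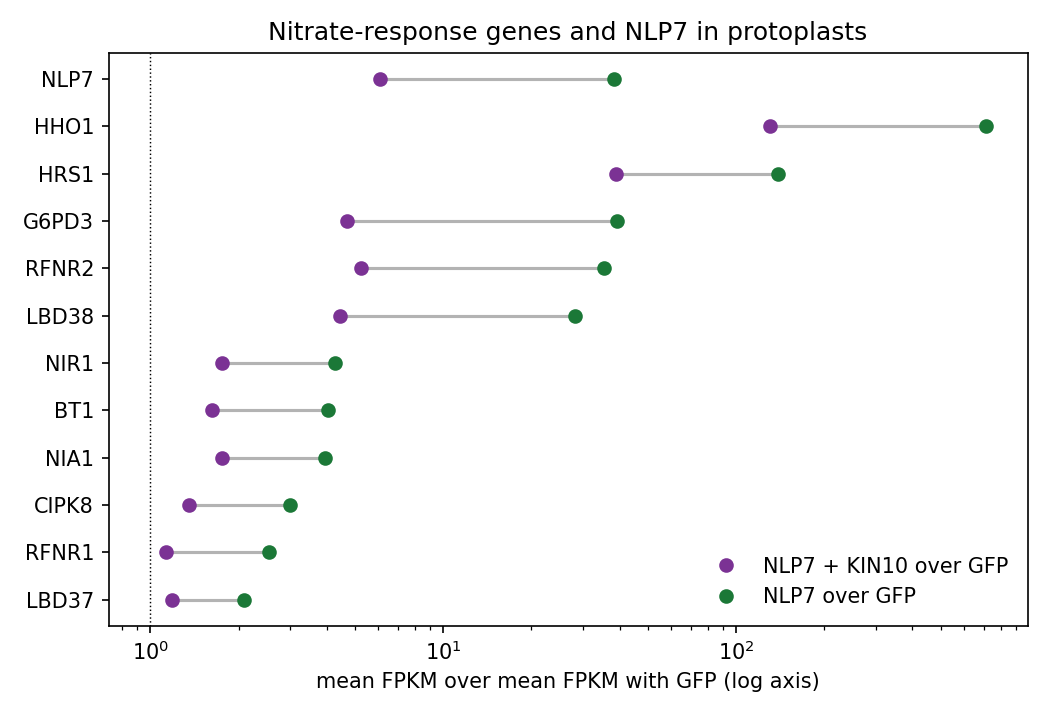
Mean FPKM with NLP7 and KIN10 (purple) and with NLP7 (green), each divided by the mean with GFP (x, log axis), for the 11 listed targets that had a level above 0 with GFP and for NLP7 itself. Every gene lies farther left with NLP7 and KIN10 than with NLP7, from HHO1, at 130.2-fold with NLP7 and KIN10 and 711.5-fold with NLP7, to LBD37, at 1.19-fold with NLP7 and KIN10 and 2.09-fold with NLP7.

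Of 6 kinases and partners of NLP7, NRG2 alone was listed, in the NLP7 table. NRG2 encodes a protein that binds NLP7 and takes part in nitrate signalling. It averaged 1.08 ± 0.155 FPKM with NLP7 and KIN10, 5.45 ± 1.15 FPKM with NLP7 and 0.767 ± 0.141 FPKM with GFP (SD, n = 3). Because NRG2 was listed through its level with NLP7, these values are given as a description.

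CYP707A2, known as a target of NLP8 in seeds, was 1 of 2 listed among 4 abscisic acid hydroxylase genes. It had 17 fragments over 3 libraries with NLP7 and KIN10 and 333 with NLP7, and was listed at 0 with GFP. In roots it had 8 fragments in KIN10ox with KNO3, 12 in KIN10ox with KCl and 13 in Ler with KNO3, and it was listed at 0 in Ler with KCl. CYP707A3 averaged 36.5 ± 13.1 FPKM in KIN10ox with KNO3 and 28.4 ± 5.00 FPKM in KIN10ox with KCl, where library 2 alone had 33.6 FPKM. In Ler it averaged 37.1 ± 1.41 FPKM with KNO3 and 19.9 ± 1.17 FPKM with KCl. CYP707A3 was listed as higher with KNO3 in the Ler table and was not listed in the KIN10ox table.

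The genes whose profiles over libraries were most like each member were found by the root mean square difference of centred log2(FPKM + 0.1) values, among genes averaging at least 1 FPKM. For NLP8, over 12 root libraries and 815 genes, they were UGT76D1 (0.145), AT2G32560 (0.193), AT5G02090 (0.199), MAN1 (0.200) and ATGLR1.2 (0.212). UGT76D1, a glycosyltransferase gene, averaged 4.39 FPKM in KIN10ox with KNO3, 17.0 FPKM in KIN10ox with KCl (16.0 FPKM in library 2), 4.82 FPKM in Ler with KNO3 and 13.9 FPKM in Ler with KCl. For NLP9 the values were larger, from 0.433 for AT5G67430 and 0.451 for SUFE2 to 0.535 for AT4G39795, 0.605 for HB53 and 0.634 for MYB42. No gene of the set thus followed NLP9 as closely as UGT76D1 followed NLP8 by this measure. The measure also depends on the size of the changes and on counting error. NLP9 had the larger fold change and fewer fragments with KNO3, so the values of both genes are not directly comparable.

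For NLP7, over 9 protoplast libraries and 1207 genes, they were DAR2 (0.181), GATA3 (0.196), SFH3 (0.226), AT1G68500 (0.253) and IPT3 (0.253). GATA3, a GATA transcription factor gene, averaged 0.960 FPKM with NLP7 and KIN10, 5.28 with NLP7 and 0.0833 with GFP. IPT3, a cytokinin synthesis gene that responds to nitrate, averaged 0.367 FPKM with NLP7 and KIN10 and 3.26 FPKM with NLP7 and was listed at 0 with GFP. DAR2 and AT1G68500 were also at 0 with GFP, where the pseudocount of 0.1 sets the value compared. For NLP3, over 1208 genes, they were AT4G28170 (0.154), AT4G13575 (0.286), PSBTN (0.313), AT2G35640 (0.332) and AT4G28085 (0.335). NLP3 averaged 0.0433 FPKM with GFP, under the pseudocount of 0.1, which narrows its differences before they are compared. AT4G28170 averaged 2.47 FPKM with NLP7 and KIN10, 8.57 FPKM with NLP7 and 1.22 FPKM with GFP, a smaller rise than that of NLP3. With a pseudocount of 1, 3 of the 5 genes remained for NLP8, 1 for NLP9 and 0 each for NLP7 and NLP3. Without libraries 1 and 3 of KIN10ox with KCl, an alternative chosen after seeing the data, 2 of the 5 remained for NLP8 and 4 for NLP9.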

How the data were processed

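Members and gene lists were chosen with earlier results of these data known. Reads were aligned to TAIR10, and HISAT and Bowtie2 were used, per the submitters' processing notes, with no version stated. The study's description names NOISeq, while the file headers name DESeq2, for choosing the listed genes. FPKM and expected counts per gene and library, and log2 fold changes with p-values, were deposited by the authors, per the file headers. The protoplast tables hold 18 columns of samples outside the sample list, which were not used.

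Library sizes were recovered from the ratio of expected counts to FPKM against transcript length. Genes with 1 transcript and at least 200 counts were used, and all of these lay within 2% of that line. Expected counts were rounded and tested with edgeR 4.0.16 (quasi-likelihood test, R 4.3.3) on these library sizes, and filterByExpr left 972 of 1128 root and 1722 of 2065 protoplast genes. The groups of a tissue shared 1 estimate of the spread, and p-values were adjusted over all genes tested with a threshold of 0.05. Contrasts that the tables were built on are given as descriptions. DESeq2 1.42.0, limma 3.58.1, TMM scaling, no filter, 2 pseudocounts, a replicate block and leaving out libraries were the alternatives. On simulated counts for 972 genes, KIN10ox against Ler with KCl recovered 67% of 2-fold and 94% of 4-fold changes, with 0.920% false calls. For NLP7 with KIN10 against NLP7, on 1722 genes, it recovered 66% and 92%, with 1.04% false calls. The simulated means were equal between groups but for 100 genes changed 2-fold and 100 changed 4-fold, up or down. In the data 86.4% of genes were called lower in this second contrast, so its simulated rates may not hold there. With 3 libraries a group an exact permutation test of 1 gene cannot go below p = 0.1. Named genes are the members, the listed genes of the fixed lists, those with the largest and smallest change, and the 5 genes of most similar profile. Sequences were read from the TAIR10.1 genome and annotation of RefSeq.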

Additional observations from a re-analysis of the deposited data

How the results depend on the processing

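For NLP8, KIN10ox over Ler with KNO3 changed sign to 0.16 under TMM, 0.15 under DESeq2 with its own size factors and 0.14 without library 2 of KIN10ox with KNO3. The response difference of NLP8 changed to 0.14, 0.13 and 0.0056 under the same settings, and that of NLP9 to -0.048 with limma on log2(FPKM + 1) and to -0.0065 without library 1 of KIN10ox with KNO3. Leaving out 1 library at a time gave -0.22 to 0.14 for the KNO3 difference of NLP8, and -0.35 to 0.0056 for NLP8 and -0.0065 to 0.56 for NLP9 for the response difference. None of these passed the threshold. The cause was not tested.

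Genes called for the response difference numbered 41 and 23 under DESeq2 with recovered and own size factors, 6 with limma on log2(FPKM + 1), 1 without libraries 1 and 3 of KIN10ox with KCl, and 0 to 19 leaving out 1 library. KIN10ox against Ler called 134 genes with KCl (44 without those 2 libraries, 74 to 179 leaving out 1, with 88 without library 1 of KIN10ox and 74 without library 2 of Ler) and 113 with KNO3 (52 to 115 leaving out 1, with 74 and 69 without library 1 or 2 of KIN10ox and 52, 60 and 61 without library 1, 2 or 3 of Ler). Higher and lower calls were 75 and 59 with KCl and 26 and 87 with KNO3, and 52 and 77 and 71 and 43 under TMM. NLP7 with KIN10 against NLP7 called 1554 genes and NLP7 against GFP 1692, and 899 and 1009 under DESeq2's own size factors.

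Same-numbered libraries deviated together with correlations from -0.234 to 0.359 in roots and from -0.0628 to 0.210 in protoplasts, and 9 of 18 same-numbered root pairs and 1 of 9 protoplast pairs were over 0.1. Because not every pair was, and the labels tie the numbers to no shared batch, they were not taken as pairs, although 8 of 12 root libraries (2 of 9 in protoplasts) correlated best with their own number, a hint from the data. With the replicate block, 137 genes were called with KCl, 117 with KNO3, 0 for the response difference and 1550 for NLP7 with KIN10 against NLP7. No call of NLP8 or NLP9 between genotypes changed with it. NLP3 in protoplasts and NLP9 with KNO3 rest on 1 to 55 and 19 to 43 fragments a library, which limits their precision.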
